A study of Mus musculus with 48 samples.

Results

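The SOCS family was followed in mouse macrophages as 8 genes, Cish and Socs1 to Socs7, picked by symbol from a table of 51789 gene IDs. All 8 were in the table and all 8 passed the filter on low counts in both groups of libraries. The data are 3′ mRNA counts from 48 libraries in 16 groups of 3. The series asks what AP-3-84, which the labels give by this code name and do not describe, does to macrophage transcripts. Cells of 8 populations were kept for 4 h with 10 µM of it, or with the solvent DMSO as vehicle.

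The ascites population was F4/80+ cells, bead-sorted from the peritoneal washes of B6(Cg)-Tyrc-2J/J mice 45 days after they received cells of ID8, a line from a mouse ovarian tumour. The thio population was F4/80+ cells, also bead-sorted, from wild-type C57BL/6 mice, 4 days after 1 ml of 3% thioglycollate, which irritates the peritoneum and recruits macrophages to it. The other 6 populations were cultured from bone marrow of wild-type (WT) or p53 knockout (KO) B6 mice with 10 ng/mL M-CSF for 6 days. They are named WT_M0, WT_M1, WT_M2, KO_M0, KO_M1 and KO_M2. M1 cells had a further 24 h with LPS at 100 ng/mL and IFN-γ at 50 ng/mL, and M2 cells had 24 h with 10 ng/mL of IL-4 and the same of IL-13. M0 cells had neither. Ages are not given, and nothing states that the 3 libraries of a group came from separate animals or cultures. So p-values measure the spread between libraries within groups, estimated over all groups fitted together, and this spread may be technical. Ascites and thio cells differ in tumour, irritant, day and mouse strain at once, and these cannot be told apart.

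SOCS proteins are brakes that a cytokine induces on its own receptor. A bound receptor activates JAK kinases, these activate STAT transcription factors, and STAT factors switch on SOCS genes. Each SOCS protein holds an SH2 domain, which finds a phosphorylated receptor or kinase, and a SOCS box, which joins it to elongins B and C and cullin 5 in a ubiquitin ligase. SOCS1 and SOCS3 can also block JAK kinases directly. In macrophages SOCS1 is known for limiting interferon signalling and SOCS3 for limiting gp130 (IL-6) signalling, while CIS, the product of Cish, and SOCS2 are known as targets and brakes of STAT5 signalling. SOCS4 to SOCS7 are less studied and less tied to cytokine induction.

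Positions of the members are from GENCODE M21 (GRCm38). Cish is at chr9:107296026-107302784, Socs1 at chr16:10782240-10785536, Socs2 at chr10:95385362-95417180 and Socs3 at chr11:117966079-117970047. Socs4 is at chr14:47276931-47296102, Socs5 at chr17:87107679-87137839, Socs6 at chr18:88665224-88927481 and Socs7 at chr11:97362551-97398542. All are protein-coding. Cish overlaps 2 genes on the other strand, Gm17040 with 1 count and Gm17041 with 0 counts over all 48 libraries. Socs6 overlaps 3 processed pseudogenes, AC118614.1 on the other strand and AC122398.2 and AC122398.3 on its own, which have no row of their own in the table used here. Overlap was taken over the whole gene span and not its exons. Whether reads from the last 2 were counted to Socs6 is therefore not known.

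Libraries held 15532373 to 19417581 counts in peritoneal cells and 3081707 to 4645148 in bone marrow-derived cells. The 2 kinds were fitted apart, with 16955 and 11779 genes tested. Values are CPM (counts relative to library size, with TMM scaling), and tests are edgeR's quasi-likelihood test with Benjamini-Hochberg adjustment over all genes, two-sided, called under 0.05. Macrophage markers were detected throughout, 10 of 10 in every group, but their summed level differed. In vehicle cells it was 30883 to 39483 CPM in WT_M0, 44490 to 47529 CPM in WT_M1 and 25537 to 31672 CPM in WT_M2, against 33932 to 40869 CPM in KO_M0, 16695 to 26234 CPM in KO_M1 and 6332 to 19028 CPM in KO_M2. The KO_M1 and KO_M2 libraries were below all KO_M0 libraries and below all WT libraries of the same polarization, and the part of this in results that use them was not tested. Single genes weigh heavily in these sums and in the neutrophil sums below. In bone marrow-derived libraries Lyz2 ranged from 3091 to 41680 CPM, and every other macrophage marker was at or below 8054 CPM. S100a8 reached 2310 CPM and S100a9 1419 CPM there, and every other neutrophil marker was at or below 233 CPM. A shift of such a gene and a shift in cell content were not told apart. The genotype field of the labels calls all bone marrow-derived libraries wild-type, while titles and the series design separate KO. Phlda3, a p53 target, was at 9.17 to 40.5 CPM in the 18 libraries labelled WT and at 0 to 1.31 CPM in the 18 labelled KO, without overlap. Trp53 itself was at 4.79 to 13.2 CPM in WT and 2.70 to 9.11 CPM in KO, and a 3′ count outside a deleted part does not check the label. The 3 vehicle libraries of KO_M0 stood apart from the other 9 M0 libraries in 4 SOCS members, as described below, so results against them are also given from treated libraries, an alternative chosen after these values were seen.

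RefSeq promoter windows (GRCm38.p6) were matched for 4 of the 8 members: Cish, Socs1, Socs3 and Socs4. The start used is that of RefSeq. For Socs3 and Cish the window lies inside the GENCODE span of the gene given above, not upstream of it. The 250 bases before the start were searched on both strands for TTCNNNGAA, the palindrome that STAT dimers recognise, for the same outer letters with 4 bases between them, a spacing favoured by STAT6, and for GAAANNGAA, the core of an interferon-stimulated element. Socs1 and Socs3 are shown because both rose in M1 cells and each holds a match, in capitals below, 5′ to 3′ on the gene's strand.
Socs1, chr16:10785537-10785786, minus strand: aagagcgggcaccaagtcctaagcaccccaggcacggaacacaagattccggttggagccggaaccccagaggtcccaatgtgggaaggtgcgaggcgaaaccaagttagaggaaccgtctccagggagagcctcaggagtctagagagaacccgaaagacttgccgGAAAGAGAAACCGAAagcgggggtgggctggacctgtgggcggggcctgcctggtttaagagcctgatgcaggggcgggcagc
Socs3, chr11:117969367-117969616, minus strand: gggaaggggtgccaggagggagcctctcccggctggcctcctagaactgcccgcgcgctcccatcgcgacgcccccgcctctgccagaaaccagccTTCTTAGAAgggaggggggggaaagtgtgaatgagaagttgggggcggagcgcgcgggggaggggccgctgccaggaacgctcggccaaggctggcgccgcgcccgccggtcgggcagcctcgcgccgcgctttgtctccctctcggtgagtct
Socs1 held 2 overlapping matches to the interferon core, GAAAGAGAA from 83 to 75 bases before the start and GAAACCGAA from 77 to 69. Socs3 held 1 STAT palindrome, TTCTTAGAA, from 154 to 146 bases before the start. The windows of Cish and Socs4 held none of the 3 motifs, which says only that these letters are absent from those bases. Of 32851 windows of this length, 7.02% held TTCNNNGAA, 5.85% held the wider spacing and 7.13% held GAAANNGAA. A match is a description of letters, not a binding site.

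Cish, Socs1, Socs2 and Socs3 varied over a wide range between bone marrow-derived groups, Socs6 over a moderate range, and Socs4, Socs5 and Socs7 over a narrow one. The highest of the 12 group means was 309 times the lowest for Cish, 97.1 times for Socs1, 123 times for Socs2, 26.3 times for Socs3 and 5.95 times for Socs6. The same ratio was 2.46 for Socs4, 2.73 for Socs5 and 1.48 for Socs7. Over 18 comparisons between 2 groups, Socs1 was called in 9, Socs3 and Socs6 in 8 each, Cish and Socs2 in 6 each, Socs5 in 3, and Socs4 and Socs7 in 0 (edgeR). In such bulk samples, fewer cells of a type and less RNA per cell cannot be told apart.

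**Figure D1:**
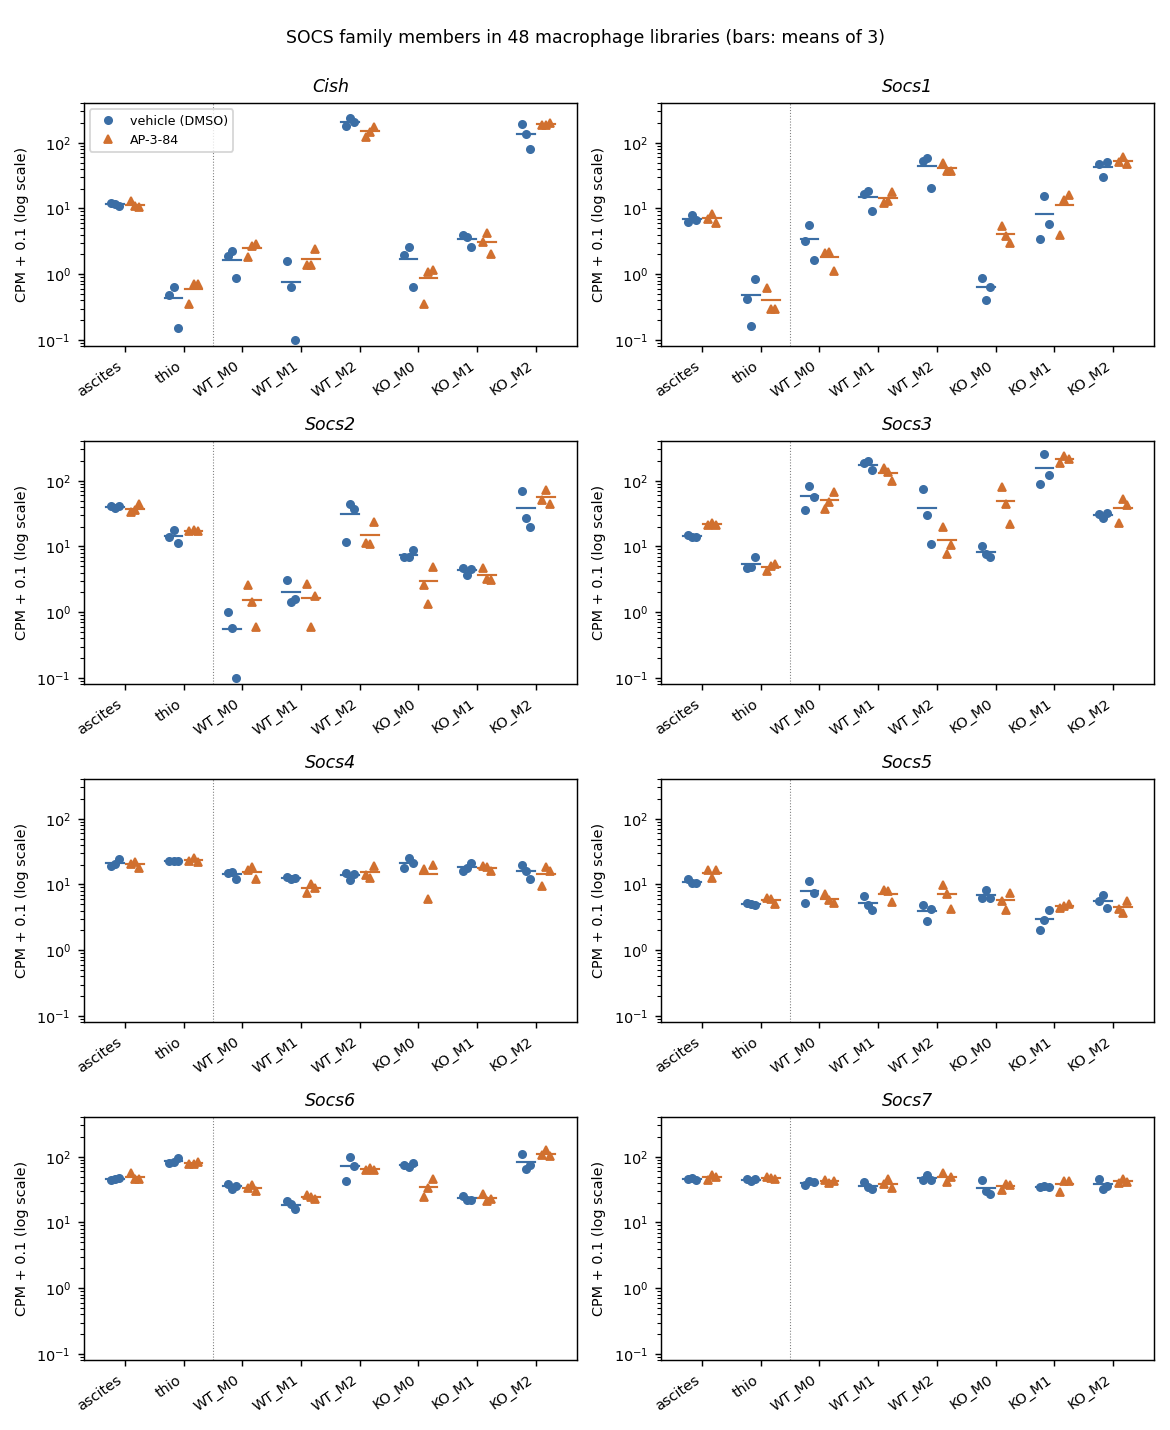
Each panel plots 1 member in the 48 libraries as CPM + 0.1 on a log scale, with vehicle libraries as circles, AP-3-84 libraries as triangles and group means as bars; the dotted line separates peritoneal from bone marrow-derived cells, which were scaled apart. Cish lies between 81.1 and 237 CPM in all 12 M2 libraries and at or below 4.13 CPM in the other 24 bone marrow-derived libraries, while Socs7 stays between 26.8 and 56.8 CPM.

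Cish, Socs1 and Socs2 rose in M2 cells of both genotypes. In vehicle cells, 5 of 8 members were called between M2 and M0 in WT, where 23.4% of all genes were called, and 4 of 8 in KO, where 38% were. Cish was at 1.79, 2.15 and 0.767 CPM in WT_M0 and at 177, 237 and 210 CPM in WT_M2. The groups were far apart, and the fold change was 128 (log2 7.00, SE 0.38, edgeR adjusted p 2.15e-14). In KO it went from 1.83, 2.46 and 0.541 CPM to 191, 135 and 81.1 CPM, a fold change of 83.7 (log2 6.39, SE 0.39, edgeR adjusted p 1.64e-13). Every M2 library was above every M0 library in both genotypes.

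Socs2, whose product binds the growth hormone receptor, rose beside Cish. It was at 0.897, 0.478 and 0 CPM in WT_M0, from 6 counts in all, and at 11.7, 43.4 and 37.0 CPM in WT_M2. The log2 fold change was 5.91 (SE 0.69, edgeR adjusted p 2.26e-07), and 6.78 without WT_M0 vehicle replicate 1. In KO_M0 Socs2 started higher, at 6.81, 6.77 and 8.66 CPM, and stood at 68.7, 27.0 and 19.3 CPM in KO_M2 (by edgeR, log2 fold change 2.36, SE 0.48, adjusted p 0.000311). Without KO_M2 vehicle replicate 1 that log2 fold change was 1.64, and the call held.

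Socs1, the main brake on interferon receptors, was at 3.14, 5.50 and 1.53 CPM in WT_M0 and at 52.0, 57.9 and 20.3 CPM in WT_M2. All 3 M2 libraries were higher (by edgeR, log2 fold change 3.66, SE 0.49, adjusted p 2.35e-06). In KO it went from 0.786, 0.308 and 0.541 CPM, 6 counts in all, to 47.0, 30.2 and 51.3 CPM (by edgeR, log2 fold change 6.18, SE 0.65, adjusted p 3.32e-08). The M2 levels of the 2 genotypes lay side by side, with means of 43.4 and 42.8 CPM, and the M0 levels did not.

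Socs6 was also higher in WT_M2, at 43.1, 98.6 and 71.2 CPM against 38.8, 31.8 and 36 CPM in WT_M0 (by edgeR, log2 fold change 1.00, SE 0.22, adjusted p 0.0011). In KO it was at 112, 65.1 and 74.9 CPM in M2 and at 75.5, 69.3 and 80.6 CPM in M0, and the groups overlapped. Between treated libraries of KO the difference was called, with a mean of 111 CPM in M2 and 34.2 CPM in M0 (by edgeR, log2 fold change 1.69, SE 0.22, adjusted p 4.94e-07).

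Between M2 and M0, Socs3 did not go the same way in all comparisons. In WT it was at 75.1, 29.6 and 10.8 CPM in M2 and at 35.2, 83.6 and 57.3 CPM in M0, and the difference was not called. Without WT_M2 vehicle replicate 1 edgeR called it lower in M2 (log2 fold change -1.55, adjusted p 0.0378). That library was also far above its 2 partners in the summed neutrophil markers, at 4038 CPM against 593 and 466 CPM, with 9 of 9 markers detected in the group, and the part of this in the result was not tested. Between treated WT libraries, Socs3 fell from a mean of 50.2 CPM in M0 to 12.5 CPM in M2 (by edgeR, log2 fold change -2.02, SE 0.55, adjusted p 0.011). In KO vehicle cells it rose from 9.96, 7.70 and 6.76 CPM to 31.0, 26.8 and 32.5 CPM (by edgeR, log2 fold change 1.88, SE 0.58, adjusted p 0.0127). Leaving out replicate 3 of the KO_M0 vehicle group lost that call (edgeR adjusted p 0.0549). Between treated KO libraries the means were 39.0 CPM in M2 and 49.1 CPM in M0, with no call.

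Socs3 and Socs1 rose in M1 cells and Socs6 fell, in both genotypes. Between M1 and M0, 3 of 8 members were called in WT, where 15.5% of all genes were called, and 4 of 8 in KO, where 44.5% were. In KO vehicle cells the summed neutrophil markers also went from 601 to 755 CPM in M0 to 996 to 2557 CPM in M1, with 9 of 9 detected. As given above, S100a8 and S100a9 weigh most in this sum, and the macrophage markers were lower in KO_M1. The part of either sum in the KO results was not tested. Socs3, the brake on gp130 receptors, was at 183, 199 and 145 CPM in WT_M1 against 35.2, 83.6 and 57.3 CPM in WT_M0. All M1 libraries were higher (by edgeR, log2 fold change 1.58, SE 0.49, adjusted p 0.0288). The call was lost without WT_M0 vehicle replicate 1 (edgeR adjusted p 0.122) or 3 (0.0893), without WT_M1 vehicle replicate 1 (0.0682) or 2 (0.0883), and with scaling by total counts (0.053). In KO Socs3 was at 90.4, 259 and 122 CPM in M1 against 9.96, 7.70 and 6.76 CPM in M0, a fold change of 19.2 (log2 4.26, SE 0.58, edgeR adjusted p 2.7e-06). Between treated KO libraries it was smaller, from 49.1 to 214 CPM (by edgeR, log2 fold change 2.12, SE 0.50, adjusted p 0.00342).

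Socs1 was at 16.4, 18.5 and 9.06 CPM in WT_M1, above the 3.14, 5.50 and 1.53 CPM of WT_M0 (by edgeR, log2 fold change 2.09, SE 0.51, adjusted p 0.00507). In KO_M1 it was at 3.30, 15.4 and 5.80 CPM, all above the 0.786, 0.308 and 0.541 CPM of KO_M0 (by edgeR, log2 fold change 3.80, SE 0.74, adjusted p 0.000137). Without KO_M1 vehicle replicate 2, the highest of the 3, that log2 fold change was 2.99. Between treated libraries Socs1 rose by 3.04 in WT and 1.47 in KO on the log2 scale (edgeR adjusted p 0.000338 and 0.034).

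Socs6, whose product is tied to receptor tyrosine kinases and insulin signalling, was at 20.9, 18.8 and 16.1 CPM in WT_M1 against 38.8, 31.8 and 36 CPM in WT_M0 (by edgeR, log2 fold change -0.94, SE 0.23, adjusted p 0.00521). In KO it was at 25.5, 22.0 and 21.9 CPM against 75.5, 69.3 and 80.6 CPM (by edgeR, log2 fold change -1.70, SE 0.23, adjusted p 5.3e-07). M1 libraries were the lower in every case. Between treated libraries the fall was not called in either genotype (edgeR adjusted p 0.146 in WT and 0.0876 in KO).

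Cish and Socs2 were low in M1. Cish was at 1.49, 0.53 and 0 CPM in WT_M1, from 7 counts in all, and at 3.85, 3.54 and 2.45 CPM in KO_M1. Socs2 was at 2.98, 1.32 and 1.51 CPM in WT_M1 and at 4.67, 3.54 and 4.46 CPM in KO_M1. Neither was called against M0 in vehicle cells of either genotype. Between treated KO libraries Cish was called higher in M1, with means of 3.02 and 0.766 CPM (by edgeR, log2 fold change 1.92, SE 0.58, adjusted p 0.016).

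**Figure D2:**
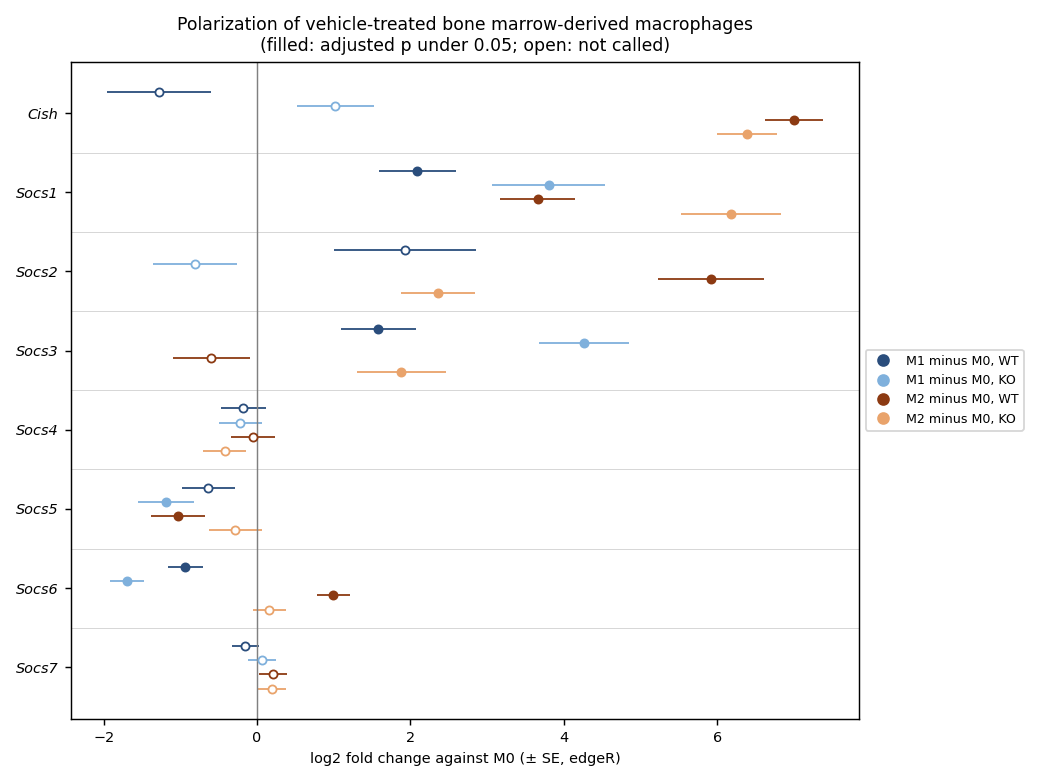
Log2 fold changes of each member against M0 in vehicle cells (x axis, with the SE from edgeR), in M1 and M2 cells of WT and KO; filled points passed the adjusted threshold. Cish reaches 7.00 and 6.39 in M2 of WT and KO, Socs3 reaches 4.26 in KO M1, and no point of Socs4 or Socs7 is filled.

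Set directly against each other, M1 and M2 cells differed in 5 of 8 members in each genotype, and these were Cish, Socs1, Socs2, Socs3 and Socs6 in both. The shares of all genes called were 25.5% in WT and 25.4% in KO. Cish was lower in M1, by a factor of 312 in WT (by edgeR, log2 fold change -8.29, SE 0.44, adjusted p 4.25e-15) and of 41.3 in KO (by edgeR, log2 fold change -5.37, SE 0.35, adjusted p 1.05e-12). The WT value rests on few counts in M1: it was -9.50 without WT_M1 vehicle replicate 1 and -7.69 without replicate 3. Socs2 was lower in M1 by log2 fold changes of -3.98 in WT and -3.17 in KO, the latter -2.45 without KO_M2 vehicle replicate 1. Socs1 was lower in M1 by -1.57 in WT and -2.38 in KO, the latter -3.18 without KO_M1 vehicle replicate 2. Socs6 was lower in M1 by -1.93 in WT and -1.86 in KO. Socs3 alone of the 5 was higher in M1, by 2.18 in WT (SE 0.51, edgeR adjusted p 0.00195) and 2.38 in KO (SE 0.51, edgeR adjusted p 0.000995). In WT the value was 3.10 without WT_M2 vehicle replicate 1, and the call was lost when only those 2 groups were fitted (edgeR adjusted p 0.0872). The same 5 members were called in the same directions between treated libraries of each genotype, where 22.4% of all genes were called in WT and 32.5% in KO.

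The rest of the pathway is given from lists written with earlier results of these data known. For these lists and the upstream genes below, the shares of all genes called against M0 were 15.5% in WT_M1 and 23.4% in WT_M2. In KO they were 44.5% in M1 and 38% in M2. Of 18 STAT6 targets tested, 17 were higher and 1 lower in WT_M2 than in WT_M0, with a median log2 fold change of 5.58, and 18 of 18 were higher in KO_M2 with a median of 4.22. Over all genes tested the medians were within 0.05 of 0. The named targets include Retnla, an alternative activation marker, at a mean of 2472 CPM in WT_M2 and 0.485 CPM in WT_M0, and Arg1, arginase, at 2086 CPM in KO_M2 and 1.46 CPM in KO_M0. Of 12 STAT3 targets, 4 were higher and 2 lower in WT_M1, and 7 higher and 2 lower in KO_M1. Saa3, an acute-phase gene, was at 69677 CPM in WT_M1 and 374 CPM in WT_M0. Of 10 STAT5 targets, 1 was higher and 5 lower in WT_M2 (median -1.22), while Cish and Socs2 rose there. The 5 that fell include Pim2, a kinase, at 2.20 CPM in WT_M2 and 23.1 CPM in WT_M0.

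Among the upstream genes, Jak2, the kinase on growth hormone and interferon-gamma receptors, rose in both M1 and M2. Its mean was 25.3 CPM in WT_M0, 67.5 CPM in WT_M1 and 102 CPM in WT_M2, and in KO 26.1, 59.4 and 80.3 CPM (edgeR adjusted p 3.07e-05 or lower in each of the 4 comparisons). Other members of these lists went the other way. Of 4 JAK kinases, 1 was higher and 0 lower in WT_M1, 2 higher and 0 lower in WT_M2, 1 higher and 2 lower in KO_M1 and 1 higher and 1 lower in KO_M2, where Jak1 was at 337 against 483 CPM. Of 7 STAT factors, 3 were higher and 0 lower in WT_M1, 1 higher and 1 lower in WT_M2, 3 higher and 1 lower in KO_M1, and 1 higher and 2 lower in KO_M2. Stat5a rose in M2 by log2 fold changes of 1.22 in WT and 1.08 in KO. Of 22 receptors tested, 10 were higher and 1 lower in WT_M2, among them Csf2rb, the shared chain of GM-CSF and IL-3 receptors, at 1997 against 289 CPM. In KO_M2 the receptors that passed were mostly lower, 7 against 3 higher. Of 13 other brakes, 2 were higher and 1 lower in WT_M1, 4 higher and 3 lower in WT_M2, 1 higher and 4 lower in KO_M1, and 3 higher and 3 lower in KO_M2. Those that fell in KO_M1 include Sh2b3, an adaptor that restrains JAK signalling, at 31.9 against 65.5 CPM, and Pias1 at 22.2 against 35.3 CPM. Usp18, a brake on the interferon receptor, rose in M1 by log2 fold changes of 2.46 in WT and 4.28 in KO, and in M2 by 1.93 and 3.64.

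In unpolarized cells the 2 genotypes differed in 4 of 8 members, with Socs1 and Socs3 lower and Socs2 and Socs6 higher in KO, where 33.2% of all genes were called. Socs3 was at 9.96, 7.70 and 6.76 CPM in KO_M0 and at 35.2, 83.6 and 57.3 CPM in WT_M0 (by edgeR, log2 fold change -2.84, SE 0.57, adjusted p 0.000541). Socs1 was at 0.786, 0.308 and 0.541 CPM against 3.14, 5.50 and 1.53 CPM (by edgeR, log2 fold change -2.55, SE 0.83, adjusted p 0.0186). Its call was lost without WT_M0 vehicle replicate 2 (edgeR adjusted p 0.103) and without KO_M0 vehicle replicate 2 (0.0633) or 3 (0.0606). Socs2 was at 6.81, 6.77 and 8.66 CPM in KO_M0 against 0.897, 0.478 and 0 CPM (by edgeR, log2 fold change 3.87, SE 0.76, adjusted p 0.00032), and its log2 fold change was 4.73 without WT_M0 vehicle replicate 1. Socs6 was at 75.5, 69.3 and 80.6 CPM in KO_M0 against 38.8, 31.8 and 36 CPM (by edgeR, log2 fold change 1.08, SE 0.22, adjusted p 0.000354). For these 4 members the 2 groups did not overlap, and the share of all genes without overlap was not computed.

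Those differences were not called between the treated libraries of the same genotypes. There, 0 of 8 members were called by edgeR, with 1 (Cish) at an unadjusted p under 0.05, where 11.8% of all genes were called. Socs3 had means of 49.1 CPM in treated KO_M0 and 50.2 CPM in treated WT_M0 (log2 fold change -0.03), and Socs6 had means of 34.2 and 33.6 CPM (log2 fold change 0.02). Socs1 was on the other side of 0, at 3.97 CPM in KO against 1.70 CPM in WT (log2 fold change 1.21, edgeR adjusted p 0.249). DESeq2 was not run on treated libraries.

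The 3 vehicle libraries of KO_M0 lay outside the range of all 9 other M0 libraries in each of these members. The other 9 ranged from 1.01 to 5.50 CPM for Socs1, from 0 to 4.77 CPM for Socs2, from 22.2 to 83.6 CPM for Socs3 and from 24.0 to 45.8 CPM for Socs6. The share of all genes that lay outside in this way was not computed, so it cannot be read as a trait of SOCS genes. Of all genes, 33.2% were called between vehicle KO_M0 and WT_M0, and 20.7% between treated and vehicle KO_M0. Summed neutrophil markers were at 601, 755 and 613 CPM in the 3 libraries and at 283 to 513 CPM in the other 9, with 9 of 9 markers detected in every M0 group, and their part in the results was not tested.

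**Figure D3:**
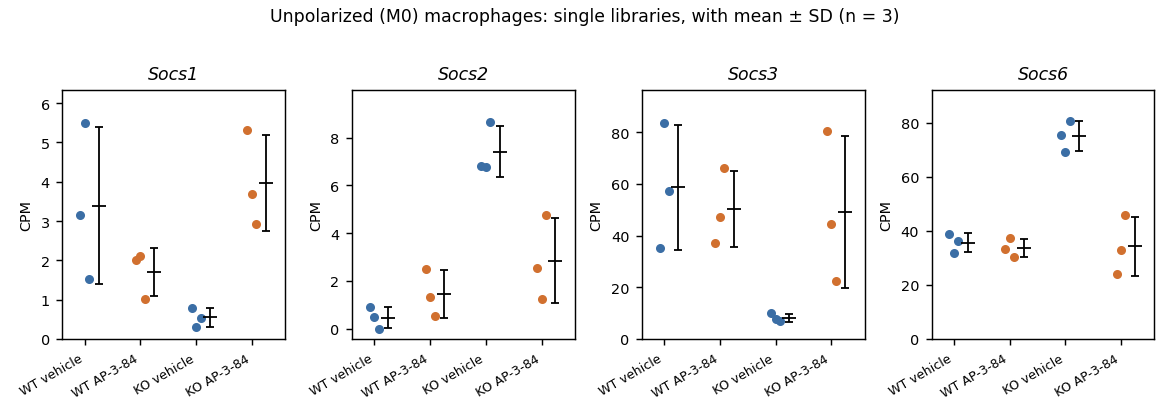
Socs1, Socs2, Socs3 and Socs6 in the 12 M0 libraries (y axis, CPM; each point is 1 library, with the group mean and SD), by genotype and treatment. The KO vehicle libraries lie below all others for Socs1 (0.308 to 0.786 CPM) and Socs3 (6.76 to 9.96 CPM) and above all others for Socs2 and Socs6.

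The rest of the pathway was compared between the genotypes in M0 cells with the same KO_M0 vehicle libraries that stood apart, and 33.2% of all genes were called there. Of 4 SOCS box partners, 0 were higher and 3 lower in KO (median log2 fold change -1.03), among them the elongins Elob (129 against 276 CPM) and Eloc (47.3 against 108 CPM). Of 22 receptors, 9 were higher and 2 lower (median 0.92), among them Ifngr1, a chain of the interferon-gamma receptor, at 305 against 97.8 CPM, and Il6st, which encodes gp130, at 75.8 against 23.6 CPM. Of 10 STAT5 targets, 0 were higher and 5 lower (median -1.30), with Ccnd1, cyclin D1, at 63.8 against 645 CPM. Of 12 STAT3 targets, 2 were higher and 7 lower. The other lists were nearer to that share or below it: 1 higher and 0 lower of 4 JAK kinases, 1 and 1 of 7 STAT factors, 4 and 1 of 18 STAT6 targets, 1 and 3 of 9 ligands, and 3 and 3 of 13 other brakes.

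In polarized cells fewer members differed between genotypes. In M1, 1 of 8 was called, where 11.6% of all genes were: Cish was at 3.85, 3.54 and 2.45 CPM in KO and at 1.49, 0.53 and 0 CPM in WT, without overlap (by edgeR, log2 fold change 2.30, SE 0.60, adjusted p 0.0125). That call rests on 39 and 7 counts and was lost without WT_M1 vehicle replicate 2 (edgeR adjusted p 0.0565) or 3 (log2 fold change 1.69, edgeR adjusted p 0.0799), while the log2 fold change was 3.49 without replicate 1. It was not called between treated M1 libraries (log2 fold change 0.89, edgeR adjusted p 0.279). Summed neutrophil markers were at 996 to 2557 CPM in vehicle KO_M1 and at 441 to 571 CPM in vehicle WT_M1, with 9 of 9 detected in both, and macrophage markers did not overlap between the genotypes in M1 or in M2, as given above. The part of either in the result was not tested. In M2, 0 of 8 members were called by edgeR or DESeq2, with 1 (Cish) at an unadjusted p under 0.05, where 3.56% of all genes were called. Cish was at 191, 135 and 81.1 CPM in KO_M2 and at 177, 237 and 210 CPM in WT_M2, and without KO_M2 vehicle replicate 1 it was called lower in KO (log2 fold change -0.94, edgeR adjusted p 0.0271). KO_M2 vehicle replicate 3, the library with 81.1 CPM, also had the lowest summed macrophage markers, 6332 CPM against 19028 and 9826 CPM in its partners, and 3359 CPM of neutrophil markers.

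Treated polarized libraries gave a different set of calls between genotypes. In treated M2 cells Socs2 was at 51.6, 73.4 and 44.2 CPM in KO and at 11.1, 10.7 and 23.1 CPM in WT (by edgeR, log2 fold change 1.91, SE 0.45, adjusted p 0.00572). Socs6 was at 104, 126 and 101 CPM against 61.8, 67.3 and 63.6 CPM (by edgeR, log2 fold change 0.78, SE 0.21, adjusted p 0.0139). In treated M1 cells Socs4 was at 18.7, 18.6 and 15.7 CPM in KO and at 7.37, 10.1 and 8.60 CPM in WT (by edgeR, log2 fold change 1.01, SE 0.30, adjusted p 0.025). The groups did not overlap in any of the 3, and the share of all genes without overlap was not computed. Whether these differences changed with treatment is given with the responses to AP-3-84.

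The size of the polarization effect itself was tested between genotypes. For M2 against M0, 4 of 8 members differed in effect, where 27.1% of all genes did. Socs1 rose more in KO (difference of log2 fold changes 2.52, SE 0.93, edgeR adjusted p 0.044). Socs3 rose in KO, while its log2 fold change in WT was -0.60 and not called (difference 2.48, SE 0.77, edgeR adjusted p 0.0186). Socs2 and Socs6 rose less in KO (-3.55 and -0.84, edgeR adjusted p 0.00463 and 0.0394). For M1 against M0, 1 of 8 differed, where 20.7% of all genes did: Socs3 rose more in KO (2.68, SE 0.74, edgeR adjusted p 0.0115), with 4 at an unadjusted p under 0.05 and 3 called by DESeq2. Cish was not called (2.30, edgeR adjusted p 0.0507). All 5 called differences include the KO_M0 vehicle libraries that stood apart. Socs2 and, in M1, Socs3 kept their calls under every alternative run on vehicle libraries. These differences were not tested between treated libraries. There, log2 fold changes for M2 against M0 in WT and KO were 3.35 and 4.31 for Socs2 and 4.57 and 3.72 for Socs1. They were 0.94 and 1.69 for Socs6, and -2.02 and -0.33 for Socs3. Socs1, Socs2 and Socs6 thus differed between genotypes in the direction opposite to vehicle cells. For M1 against M0, Socs3 rose by 1.38 in WT and 2.12 in KO. The Socs1 call in M2 was lost in 8 of 12 runs with 1 library left out (edgeR adjusted p 0.0583 to 0.153), and so was that of Socs6 in 8 of 12. The Socs3 call in M2 was lost without WT_M0 vehicle replicate 2 (edgeR adjusted p 0.0541) and without KO_M0 vehicle replicate 3 (0.0504), and the difference was 3.41 without WT_M2 vehicle replicate 1. For Socs2 it was -4.41 without WT_M0 vehicle replicate 1 and -4.27 without KO_M2 vehicle replicate 1.

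SOCS members were called between AP-3-84 and vehicle in 1 of the 8 populations, KO_M0, where 3 of 8 members and 20.7% of all genes were called. Socs3 rose from 9.96, 7.70 and 6.76 CPM to 80.6, 44.4 and 22.2 CPM, a fold change of 6.00 (log2 2.59, SE 0.57, edgeR adjusted p 0.00229). Socs1 rose from 0.786, 0.308 and 0.541 CPM to 5.31, 3.70 and 2.91 CPM, that is from 6 to 47 counts in all (by edgeR, log2 fold change 2.77, SE 0.82, adjusted p 0.0158). Every treated library was above every vehicle library for both. The Socs1 call was lost in edgeR without 1 of 3 libraries, KO_M0 vehicle replicate 2 (adjusted p 0.0594) or 3 (0.0553) or KO_M0 treated replicate 1 (0.0737). Socs6 fell from 75.5, 69.3 and 80.6 CPM to 24.0, 32.8 and 45.8 CPM (by edgeR, log2 fold change -1.14, SE 0.22, adjusted p 0.000423). Socs2 was at 6.81, 6.77 and 8.66 CPM in vehicle and at 2.53, 1.23 and 4.77 CPM with AP-3-84, without overlap, and was not called (edgeR adjusted p 0.086, DESeq2 adjusted p 0.048). Without KO_M0 treated replicate 3 it was (log2 fold change -1.96, edgeR adjusted p 0.0322). The treated values of these members overlap the range of the WT_M0 libraries, as the plot of M0 libraries shows. The summed neutrophil markers of these KO_M0 libraries, given above, were also lower with AP-3-84, at 309 to 507 CPM against 601 to 755 CPM. Summed macrophage markers were at 40653, 19033 and 30548 CPM with AP-3-84 and at 33932 to 40869 CPM with vehicle. The part of either in these results was not tested.

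**Figure D4:**
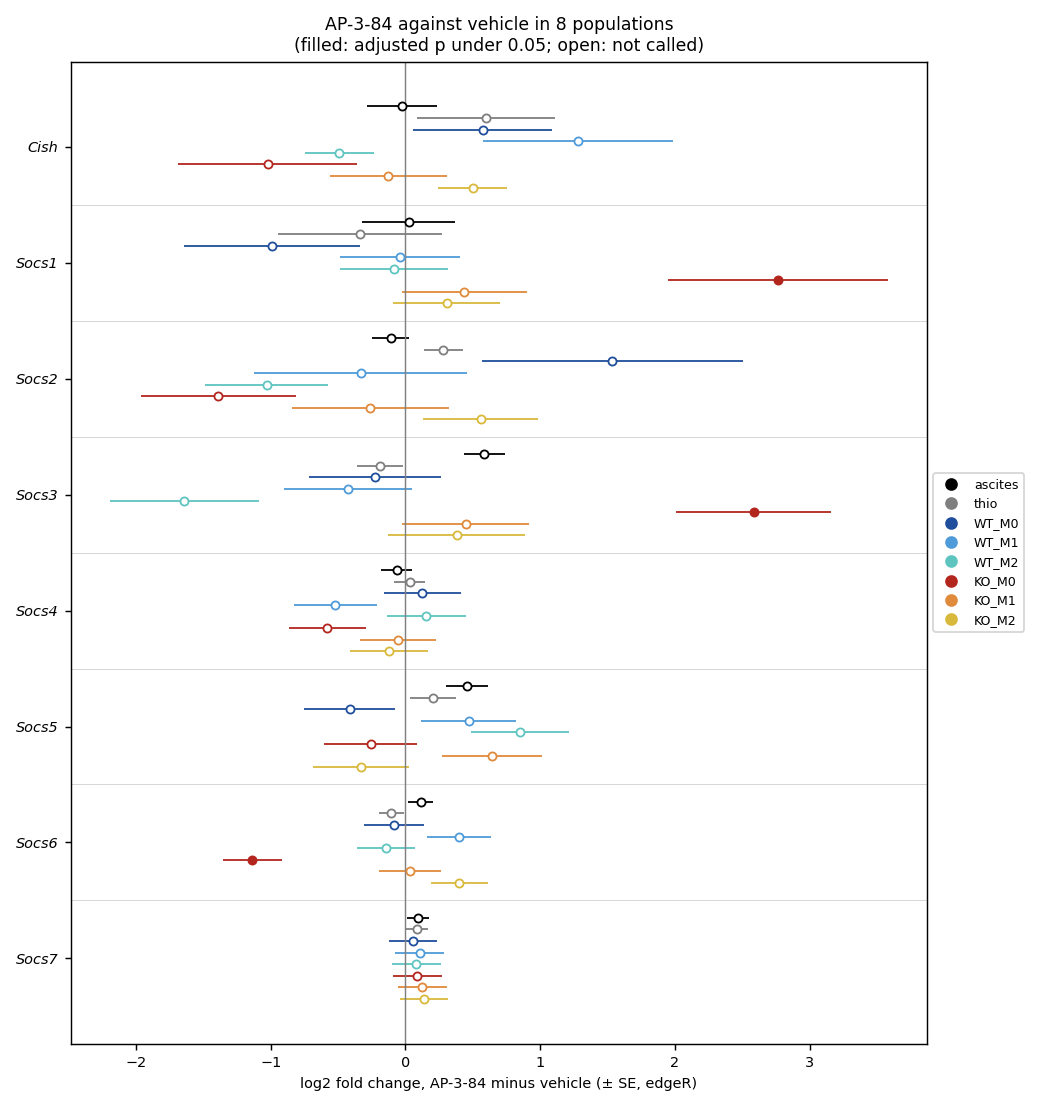
Log2 fold changes of each member between AP-3-84 and vehicle (x axis, with the SE from edgeR) in the 8 populations; filled points passed the adjusted threshold. The 3 filled points are Socs1 (2.77), Socs3 (2.59) and Socs6 (-1.14), all in KO_M0.

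In the other 7 populations 0 of 8 members were called by edgeR. In WT_M0, where 0.144% of all genes were called, in WT_M1 (0.017%), in KO_M1 (0%), in KO_M2 (0.0509%) and in thio cells (4.32%), 0 members had an unadjusted p under 0.05 and 0 were called by DESeq2. Socs3 in WT_M0 was at 37.3, 47.2 and 66.2 CPM with AP-3-84 and at 35.2, 83.6 and 57.3 CPM with vehicle, and the groups overlapped. In WT_M2, where 1.21% were called, 3 members had an unadjusted p under 0.05 (Socs2, Socs3 and Socs5) and DESeq2 called 0. Socs3 was at 19.5, 7.51 and 10.6 CPM with AP-3-84 and at 75.1, 29.6 and 10.8 CPM with vehicle. Without WT_M2 vehicle replicate 3, the lowest vehicle library, it was called (log2 fold change -2.07, edgeR adjusted p 0.0367). Over all runs with 1 library left out, its log2 fold change lay between -2.10 and -0.72, against -1.64 with all libraries. WT_M2 vehicle replicate 1, the highest, is the library with 4038 CPM of neutrophil markers, and the part of this was not tested. In ascites cells, where 1.79% were called, 2 members had an unadjusted p under 0.05. Socs3 was at 21.1, 22.4 and 21.1 CPM with AP-3-84 and at 15.1, 13.9 and 14.1 CPM with vehicle, without overlap (log2 fold change 0.59, edgeR adjusted p 0.0622). DESeq2 called it (adjusted p 0.0254). Socs5 was at 16.7, 12.2 and 16.3 CPM against 12.1, 10.4 and 10.4 CPM (log2 fold change 0.46, edgeR adjusted p 0.218).

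The lists around the SOCS genes in KO_M0 are set beside the 20.7% of all genes called there, and apart from the receptors they were near it. With AP-3-84, 3 of 12 STAT3 targets were higher and 0 lower, and 3 of 10 STAT5 targets were higher and 0 lower. Saa3 was at 1220 against 58.4 CPM. Of 9 ligands tested 2 were higher, one of them Il10, an anti-inflammatory cytokine that signals through STAT3, at 22.0 against 2.66 CPM. Of 13 other brakes 3 were higher, among them Usp18 at 60.4 against 6.15 CPM and Ptpn6, the phosphatase SHP-1, at 816 against 307 CPM. Of 22 receptors 2 were higher and 7 lower.

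The response to AP-3-84 differed between KO and WT in M0 cells for 3 of 8 members, where 17% of all genes differed. The differences of log2 fold changes were 3.76 for Socs1 (SE 1.06, edgeR adjusted p 0.0145), 2.81 for Socs3 (SE 0.76, edgeR adjusted p 0.0123) and -1.05 for Socs6 (SE 0.31, edgeR adjusted p 0.0182). Each was lost with some library left out: Socs1 without WT_M0 vehicle replicate 2 (edgeR adjusted p 0.0507), Socs3 without KO_M0 treated replicate 1 (0.0531), and Socs6 without KO_M0 treated replicate 1 (0.0732) or 2 (0.0525). Socs2 was called without WT_M0 treated replicate 3 (0.0424) or KO_M0 treated replicate 3 (0.0295). In M1 cells 0 of 8 responses differed between genotypes by edgeR or DESeq2, with 0 at an unadjusted p under 0.05 (0.00849% of all genes called). In M2 cells 0 differed by either tool, with 4 at an unadjusted p under 0.05 (1.77% of all genes called). Socs3 there gave a difference of 2.02 (edgeR adjusted p 0.176). Without KO_M2 vehicle replicate 1, edgeR called Socs2 (2.31, adjusted p 0.0186) and Cish (1.32, adjusted p 0.0219).

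Other differences between responses were not called for any member by edgeR with all libraries, and some were with 1 library left out. Averaged over both genotypes, responses in M1 against M0 had 3 members at an unadjusted p under 0.05 and 0 called by DESeq2 (0.492% of all genes called by edgeR). Without KO_M0 treated replicate 3, edgeR called Socs6 (0.95, adjusted p 0.00739). In M2 against M0, 2 members had an unadjusted p under 0.05, Socs3 (-1.81, edgeR adjusted p 0.08) and Socs6 (0.74, edgeR adjusted p 0.072), and DESeq2 called 2 (1.87% of all genes called by edgeR). Without KO_M0 treated replicate 3, edgeR called Socs3 (-1.99, adjusted p 0.019) and Socs6 (0.87, adjusted p 0.00789). It also called Socs3 without WT_M2 vehicle replicate 3 (-2.03, adjusted p 0.0213), and Socs6 without WT_M2 vehicle replicate 2 (0.89, adjusted p 0.0175) or KO_M2 vehicle replicate 1 (0.87, adjusted p 0.0171). Between ascites and thio cells 1 member had an unadjusted p under 0.05, Socs3 (0.77, edgeR adjusted p 0.41), and DESeq2 called 0 (0.118% of all genes called by edgeR).

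Ascites macrophages held more of 5 SOCS members than thio macrophages and less of Socs6: 6 of 8 members were called, and 33.7% of all genes. Cish was at 12.0, 11.6 and 10.7 CPM in ascites and at 0.383, 0.547 and 0.0542 CPM in thio vehicle cells, a fold change of 35.1 (log2 5.13, SE 0.37, edgeR adjusted p 5.74e-09). Without thio vehicle replicate 2 the log2 fold change was 5.74. Socs1 was at 6.05, 7.88 and 6.67 CPM against 0.319, 0.0607 and 0.759 CPM (by edgeR, log2 fold change 4.11, SE 0.45, adjusted p 1.13e-06), and 5.14 without thio vehicle replicate 3. Both genes were close to absent in thio cells and the 3 ascites libraries lay close together. Socs2 was at 41.0, 38.0 and 41.6 CPM against 13.9, 17.7 and 11.2 CPM, a fold change of 2.82 (edgeR adjusted p 1.65e-07). Socs3 was at 15.1, 13.9 and 14.1 CPM against 4.60, 4.74 and 6.84 CPM, a fold change of 2.65 (edgeR adjusted p 1.85e-06). Socs5 was at 12.1, 10.4 and 10.4 CPM against 5.17, 4.92 and 4.72 CPM, a fold change of 2.22 (edgeR adjusted p 2.44e-05). Socs6 was at 44.1, 45.1 and 47.8 CPM against 79.4, 82.6 and 95.7 CPM (by edgeR, log2 fold change -0.91, SE 0.09, adjusted p 3.65e-07). The libraries of the 2 populations did not overlap in any of these 6 members, and every call held under every alternative run. The share of all genes without overlap was not computed, so this cannot be read as a trait of SOCS genes.

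The sorted ascites cells also carried epithelial and mesothelial markers. Their sum was 211 to 250 CPM in vehicle ascites libraries, with 9 of 9 detected, against 3.20 to 4.98 CPM in thio libraries, with 7 of 9 detected. Summed neutrophil markers were at 62.3 to 94.7 CPM in ascites and 107 to 112 CPM in thio cells, with 5 of 9 detected in each, and Mpo, Elane and Ngp at 0 in both. In peritoneal libraries the neutrophil sum rested on S100a8 (27.7 to 65.0 CPM) and Cxcr2 (33.4 to 61.3 CPM), with every other neutrophil marker at or below 0.696 CPM. The part of either marker set in these results was not tested.

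**Figure D5:**
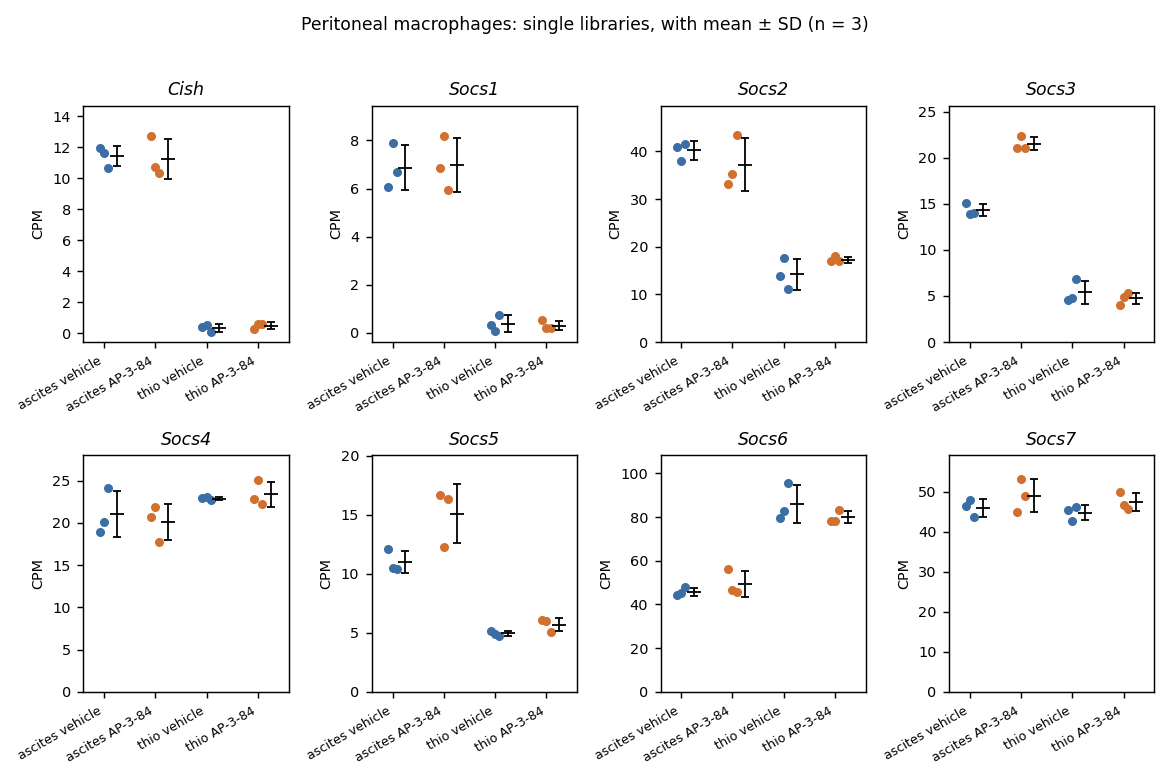
The 8 members in the 12 peritoneal libraries (y axis, CPM; each point is 1 library, with the group mean and SD), ascites and thio cells with vehicle or AP-3-84. Ascites libraries lie above all thio libraries for Cish, Socs1, Socs2, Socs3 and Socs5 and below them for Socs6, and Socs3 is at 21.1 to 22.4 CPM in treated ascites cells against 13.9 to 15.1 CPM in vehicle.

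Members of the pathway lists also differed between ascites and thio vehicle cells, where 33.7% of all genes were called. Of 18 STAT6 targets tested, 13 were higher and 3 lower in ascites cells (median log2 fold change 1.19), with Arg1 at 535 against 82.5 CPM and Chil3 at 0.559 against 16.7 CPM. Of 9 STAT5 targets 5 were higher and 2 lower, with Ccnd2, cyclin D2, at 172 against 4.33 CPM. Of 7 STAT factors 3 were higher and 0 lower, among them Stat2 at 241 against 59.9 CPM. Of 22 receptors 12 were higher and 5 lower, with Il2rg, the common gamma chain, at 267 against 38.7 CPM. Of 13 other brakes 5 were higher and 2 lower, with Usp18 at 105 against 6.73 CPM.

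Socs4 and Socs7 were called in 0 of 18 comparisons with all libraries and TMM scaling, and Socs5 in 3. Socs4 ranged from 5.92 to 25.2 CPM in cultured cells and from 17.8 to 25.1 CPM in peritoneal cells. It was called in 0 of 18 comparisons by edgeR, with 1 at an unadjusted p under 0.05, the one between KO and WT in M0 (17.8, 25.2 and 21.1 CPM against 15, 15.5 and 12.0 CPM). Socs7 was at 26.8 to 56.8 CPM and at 42.7 to 53.2 CPM, and was called in 0, with 0 at an unadjusted p under 0.05. DESeq2 also called 0 for each of the 2 genes. Between treated libraries Socs4 was called lower in M1 than in M0 in WT, with means of 8.68 and 15.5 CPM (by edgeR, log2 fold change -0.83, SE 0.30, adjusted p 0.0458), beside the difference between genotypes in treated M1 cells given above. With scaling by total counts it was called between KO and WT in vehicle M1 cells (edgeR adjusted p 0.0486). Socs5 was called lower in WT_M2 than in WT_M0, at 4.73, 2.71 and 4.12 CPM against 5.16, 11.2 and 7.41 CPM (by edgeR, log2 fold change -1.03, SE 0.36, adjusted p 0.034). That call was lost without WT_M0 vehicle replicate 2 (edgeR adjusted p 0.222) or 3 (0.0541) and without WT_M2 vehicle replicate 2 (0.147) or 3 (0.0713). Socs5 was also lower in KO_M1 than in KO_M0, at 1.92, 2.78 and 4.02 CPM against 6.03, 8.00 and 6.22 CPM (by edgeR, log2 fold change -1.19, SE 0.37, adjusted p 0.00926), a call lost without KO_M1 vehicle replicate 1 (0.0561). Neither was called between treated libraries.

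The pattern of each member over the 12 bone marrow-derived group means (log2 CPM) was set against 8427 genes (8428 for Socs5), as a description: the groups share 1 scaling, and the highest of so many values is high by selection. Cish was most like Chil3 (Pearson r 0.992) and Tmem26 (0.986), Socs1 most like Cisd1 (0.969) and Pcid2 (0.954), and Socs2 most like Lrrc32 (0.979) and Nfil3 (0.978). Socs3 was most like Sod2 (0.975) and Nr1h3 (0.960), and Socs6 most like Dennd1b (0.982) and Mfhas1 (0.982). The 3 members that moved least had lower values, 0.876 for Socs4 with Cdkn2aip, 0.907 for Socs5 with Ctbp2 and 0.909 for Socs7 with Esd. Between members, Cish and Socs2 had an r of 0.89, Socs2 and Socs6 of 0.82, Cish and Socs1 of 0.79, and Socs3 and Socs6 of -0.82.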

How the data were processed

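QuantSeq FWD 3′ mRNA libraries were made from 48 mouse macrophage samples. The deposited values are raw counts per gene, whole numbers as the authors' table gives them. RSEM, Bowtie2 and DESeq2 are named in the submitters' processing notes, with no version or role. If RSEM made the counts, they may be rounded estimates. Build and annotation are not given in the sources used. Gene IDs were matched to symbols of GENCODE M21 (51596 of 51789 IDs).

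Peritoneal (12) and bone marrow-derived (36) libraries were fitted separately with edgeR 4.0.16 (R 4.3.3, limma 3.58.1): filterByExpr by group, TMM scaling, 1 coefficient per group, robust glmQLFit and glmQLFTest, Benjamini-Hochberg over all genes tested, called under 0.05. CPM was computed from the counts with TMM. The square root of the common dispersion was 0.168 and 0.225. In simulated counts, changes of 1 on the log2 scale were recovered in 62.6% of genes for AP-3-84 in ascites cells (16333 genes) and 44.2% in WT_M0 (11103 genes), and changes of 2 in 100% and 95.8%. The simulation gave every gene of a fit the same dispersion, near the common one. These shares therefore do not apply to genes that varied more between libraries, such as Socs3 in cultured cells. No library pair of a group agreed within counting noise.

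The members and gene lists were chosen with earlier results of these data known. All members are named. From each list at most the 2 largest rises and falls were eligible to be named, provided the gene was called and averaged at least 3 in log2 CPM. For likeness, the 2 genes with the highest Pearson r were taken. Alternatives were median-ratio or total-count scaling, no filter, DESeq2 1.42.0, only the groups compared, all 48 libraries in 1 fit, a replicate block, and leaving out each library. Treated libraries in place of vehicle were an alternative chosen after seeing the data. Figures were drawn with matplotlib 3.10.9. Some results of the pathway lists are not reported here.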

Additional observations from a re-analysis of the deposited data

Results flagged for a closer look

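For 8 results the effect of one factor differed between genotypes by an interaction test in edgeR. In M0 cells the response to AP-3-84 was more positive in KO than in WT for Socs1 (difference of log2 fold changes 3.76, edgeR adjusted p 0.0145) and Socs3 (2.81, edgeR adjusted p 0.0123). It was more negative in KO for Socs6 (-1.05, edgeR adjusted p 0.0182). The effect of M1 polarization was larger in KO for Socs3 (2.68, adjusted p 0.0115). In vehicle cells the effect of M2 polarization was more positive in KO for Socs1 (2.52, edgeR adjusted p 0.044) and Socs3 (2.48, edgeR adjusted p 0.0186). It was less positive for Socs2 (-3.55, edgeR adjusted p 0.00463) and Socs6 (-0.84, edgeR adjusted p 0.0394). Between treated libraries the M2 effects on Socs1, Socs2 and Socs6 differed in the opposite direction, which was not tested. All 8 use the same 3 vehicle libraries of KO_M0, so they are not 8 separate pieces of evidence.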

How the results depend on the processing

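Leaving aside the alternative with treated libraries, 34 of 48 called results kept their call in every run, and 0 of 70 results followed changed direction. Calls over the 8 AP-3-84 comparisons numbered 3, and 7 with no filter on low counts, 5 with DESeq2, and 2 to 5 with 1 library left out. Calls over the 8 differences between effects numbered 8, and 19 with no filter, 13 with DESeq2, and 4 to 13 with 1 library left out (4 without WT_M0 vehicle replicate 2, 5 without KO_M0 vehicle replicate 3, 13 without KO_M2 vehicle replicate 1). With no filter more genes enter the fit; otherwise the cause was not tested. Polarization calls numbered 26 (24 to 27), genotype calls 5 (4 to 6) and ascites against thio 6 (6 to 6). With treated in place of vehicle libraries, an alternative chosen after seeing the data, genotype calls numbered 3 and polarization calls 25, and 5 of the 37 results followed changed sign: log2 fold changes became 0.23 for Socs5 and -0.33 for Socs3 between M2 and M0 (WT and KO), 0.069 for Socs5 between M1 and M2 in KO, 1.21 for Socs1 between KO and WT in M0, and 0.37 for Cish between KO and WT in M2; the cause was not tested. Over all 72 member values of these comparisons 16 changed sign, 3 of them called in vehicle and 0 in treated libraries. Among the rest, Socs3 between KO and WT in M2 went from -0.36 to 1.66 (adjusted p 0.0515 by edgeR) and Socs5 between M1 and M0 in WT from -0.63 to 0.25. Scaling by total counts moved the median of all genes by -0.30 between M1 and M0 in WT, and the share of called genes that were higher went from 51.7% to 16.9%. Between KO and WT in M1 it moved the median by 0.27 and that share from 50.9% to 89.0%. No called member changed sign under it. With only the groups compared in the fit, genes called in edgeR between AP-3-84 and vehicle in KO_M0 went from 2440 to 704. Between KO and WT in vehicle M2 cells they went from 419 to 7. The replicate block gave 3, 26, 5, 6 and 8 calls, the same counts as without it. Whether samples of the same replicate number shared an animal or culture was not tested. No population had all 3 correlations between same-numbered vehicle and treated samples over 0.1. They ran from -0.327, 0.006 and -0.248 in ascites cells to 0.289, 0.375 and -0.087 in KO_M1 and 0.203, -0.070 and 0.220 in WT_M2, and 2 of 3 samples correlated best with their own number in each of the last 2 populations. Depth limits Cish, Socs1 and Socs2 in M0 and M1 cells, where groups hold as few as 6 counts.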
